A study of Homo sapiens with 6 samples.

Results

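The genes described here encode 10 enzymes that build amino acids or handle folate-bound carbon units in mitochondria: ASNS, PHGDH, PSAT1, PSPH, SHMT2, MTHFD2, ALDH1L2, PYCR1, ALDH18A1 and PCK2. They were chosen by name, from their known functions, out of the 58870 genes of the count table, with earlier results of these data known. The shares over all genes given below therefore describe the list and do not test it. All 10 were found and passed the filter on low values. Serine is made from the glycolytic intermediate 3-phosphoglycerate by PHGDH, PSAT1 and PSPH acting in sequence. In mitochondria SHMT2 splits serine into glycine and a carbon unit carried by folate, which MTHFD2 and ALDH1L2 oxidize further. Asparagine is made by ASNS and proline by ALDH18A1 followed by PYCR1, while PCK2 makes phosphoenolpyruvate inside mitochondria. Most of these genes are known targets of ATF4, the transcription factor of the integrated stress response, which is switched on when amino acids or charged tRNAs run short.

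RNA was sequenced from HEK-293T, immortalized cells of human embryonic kidney origin, kept in DMEM. The groups were wild type (WT, genotype Thumpd+/+, 3 libraries) and cells in which THUMPD1 had been knocked out (THUMPD1 KO, genotype Thumpd-/-, 3 libraries). THUMPD1 is the adaptor that the acetyltransferase NAT10 needs to acetylate cytidine in leucine and serine tRNAs, and the study asked how cells respond when this modification is lost. The KO cells were edited with CRISPR-Cas9 and grown from single sorted cells, so effects of the clone and of the knockout cannot be told apart, and nothing in the labels says whether the 3 replicates came from separate cultures. The p values given here therefore measure the spread between these libraries, which may be technical.

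Total expected counts lay between 32225646 and 44099898 per library, with levels given as counts-per-million values (CPM), of which 1 stood for 32.2 to 44.1 counts. The lowest count of any of the 10 genes was 261, for PCK2 in KO replicate 3. THUMPD1 itself was at 77.3, 84.6 and 80.8 CPM in WT and 10.2, 12.0 and 10.95 CPM in KO (replicates 1, 2 and 3 in this order here and throughout), so the KO libraries held 13.6% of the WT mean. The HEK-293 markers NEFL, NEFM, INA, PAX2, LIN28B and LHX1 were all detected. Their summed level was 279.6 to 289 CPM in WT and 286 to 298 CPM in KO. However, 5 of these 6 differed between genotypes, against 26.7% of all tested genes. The neurofilament gene NEFM was at 28.2 to 44.7 CPM in WT and 4.54 to 6.72 CPM in KO. Of 17 markers of other cells, 4 passed the filter, 6 were at 0 in all libraries (HBB, KRT5, KRT14, UMOD, SLC34A1 and AQP2), and their summed level was 24.1 to 29.8 CPM in WT and 21.6 to 29.9 CPM in KO. Within a genotype the libraries differed by more than counting noise, with a chi-square of 4.29 to 18.3 per degree of freedom.

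Transcripts of 9 of the 10 enzymes were lower in THUMPD1 KO cells, and 6 of these differences passed the test: PHGDH, PSAT1, SHMT2, ALDH1L2, PYCR1 and PCK2. Among all 15088 genes tested, 13.0% were called lower by the same rule and 13.7% higher, and no gene of the 10 was called higher. The median log2 fold change of the 10 genes was −0.44, against 0.02 over all tested genes. Their summed share of all counts was 0.193, 0.151 and 0.157% in WT and 0.149, 0.120 and 0.122% in KO. In bulk RNA, fewer cells expressing a gene and less RNA per cell cannot be told apart. Tests were two-sided limma-voom tests with Benjamini-Hochberg adjustment over all genes tested, and a gene was called at an adjusted p under 0.05. The count of 6 was 3 without KO replicate 2 and 3 without KO replicate 3. Of all 15088 genes, 2663 and 2799 were then called in either direction, against 4025 with all libraries.

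The replicate numbers mattered for these genes. In 9 of the 10, replicate 1 was the highest library of both genotypes, which held for 28.9% of all tested genes, and ALDH18A1 was the exception. In a fit with genotype and replicate number, 7 of the 10 genes differed between replicate numbers, whereas 0.471% of all tested genes did (71 genes). Because replicates with the same number deviated together across the transcriptome, each gene is also given with the replicate number as a block and without both replicate 1 libraries, the latter a setting chosen after seeing the data. With the block 9 of the 10 were called lower, against 16.7% of all genes, and without the replicate 1 libraries the same 9 were called lower, against 15.7% of all genes. Within the pairs of equal replicate number these 9 genes were lower in KO in all 3 pairs (26.2% of all tested genes), and the median log2 ratio of KO to WT over the 10 genes was −0.39, −0.44 and −0.42 in pairs 1, 2 and 3.

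**Figure D1:**
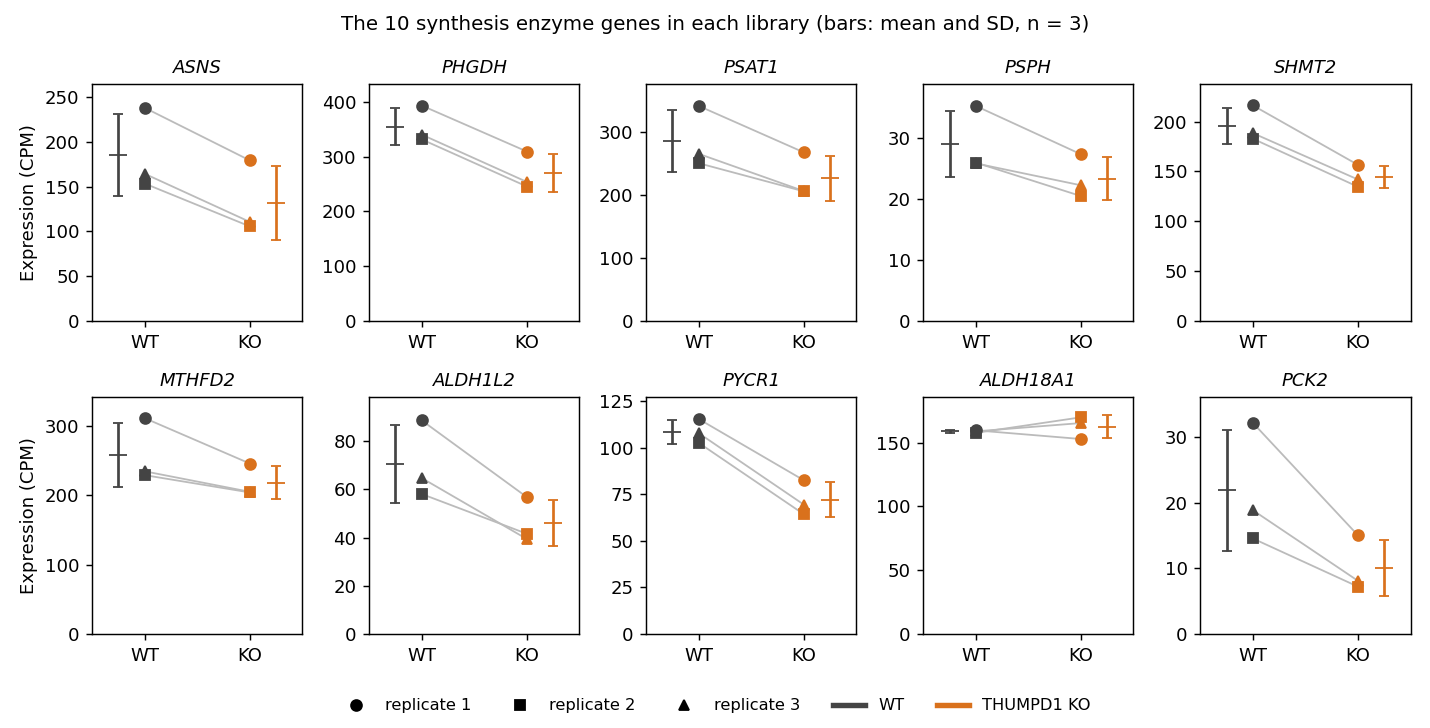
Expression in CPM (linear axes from 0) of each enzyme gene in the 3 WT and 3 THUMPD1 KO libraries, with marker shapes for replicate numbers, grey lines joining equal numbers, and bars for mean and SD (n = 3). The lines slope down in 9 panels, replicate 1 lies on top in both genotypes in those same panels, and ALDH18A1 stays between 153 and 169.8 CPM throughout.

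PHGDH catalyses the first and committing step of serine synthesis (GRCh38 chr1:119648411-119744218, plus strand, 12 exons in the canonical transcript). It was at 393, 331 and 340.0 CPM in WT and at 309, 245 and 254 CPM in KO. Every KO library was below every WT library, although KO replicate 1 came close to WT replicate 2. Mean expression was 355 ± 33.4 CPM in WT and 269 ± 34.7 CPM in KO (SD, n = 3 each), giving a log2 fold change of −0.42 (SE 0.09) with an adjusted p of 0.00780. The adjusted p was 2.24e-05 with the replicate block and stayed below the threshold in all 15 alternative settings.

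PSAT1, the transaminase of the next step (chr9:78297125-78330093, plus strand, 9 exons), was at 342, 251 and 266 CPM in WT and 268, 206 and 207 CPM in KO. KO replicate 1 exceeded WT replicates 2 and 3, so the genotypes overlapped. The log2 fold change of −0.35 (SE 0.12) passed the threshold narrowly, with an adjusted p of 0.0480 that rose above it in 7 of 15 alternatives, among them leaving out WT replicate 1 (0.111, log2 fold change −0.22), WT replicate 3 (0.0599), KO replicate 2 (0.181) or KO replicate 3 (0.171). Within the pairs the log2 ratio of KO to WT was −0.35, −0.28 and −0.36, and the blocked fit gave an adjusted p of 5.86e-05.

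PSPH, the phosphatase that releases serine (chr7:56011051-56051604, minus strand, 8 exons), was the least abundant enzyme of serine synthesis. Its values were 35.4, 26.04 and 25.9 CPM in WT and 27.4, 20.5 and 22.3 CPM in KO. Here too KO replicate 1 lay above WT replicates 2 and 3. The log2 fold change was −0.31 (SE 0.12, 95% interval −0.58 to −0.04) and was not called in the fit without a block (adjusted p = 0.0813), while the blocked fit gave 0.00180 and the fit without the replicate 1 libraries 0.00712. PSPH was called in 6 of 15 alternatives, among them DESeq2 (0.0157), sample quality weights (0.0478), without WT replicate 2 (0.0490) and without KO replicate 1 (0.0456). In contrast, the log2 fold change went to −0.17 (adjusted p = 0.197) without WT replicate 1 and to −0.22 (adjusted p = 0.288) without KO replicate 2.

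Of the 3 enzymes of mitochondrial folate metabolism, SHMT2 and ALDH1L2 were called lower and MTHFD2 was not. SHMT2, the serine hydroxymethyltransferase of mitochondria (chr12:57229573-57234935, plus strand, 12 exons), was at 216, 183 and 188 CPM in WT and 157, 135 and 142 CPM in KO. The genotypes did not overlap, and the KO mean was 73.7% of WT (196 ± 17.9 against 144 ± 11.2 CPM). Its log2 fold change of −0.46 (SE 0.07) had an adjusted p of 0.00103 and was called in all 15 alternatives. SHMT2 was among the genes whose test for replicate number was not passed (adjusted p = 0.0739), and replicate 1 exceeded the mean of replicates 2 and 3 by 16.5% in WT and 13.3% in KO.

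MTHFD2, the mitochondrial methylenetetrahydrofolate dehydrogenase and cyclohydrolase (chr2:74186172-74217565, plus strand, 8 exons), was at 311, 229 and 234 CPM in WT and 245, 204 and 205 CPM in KO. Its log2 fold change was the smallest of the 9 lower genes, and KO replicate 1 was above WT replicates 2 and 3. It was −0.25 (SE 0.11, 95% interval −0.49 to −0.01) and was not called (adjusted p = 0.117), and it went to −0.10 (adjusted p = 0.328) without WT replicate 1. Within the pairs the log2 ratios were −0.34, −0.17 and −0.19, and the adjusted p was 0.00121 with the block and 0.00272 without the replicate 1 libraries.

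ALDH1L2, which oxidizes formyl-tetrahydrofolate in mitochondria (chr12:105019784-105107643, minus strand, 23 exons), was at 88.6, 58.1 and 64.7 CPM in WT and 56.8, 41.6 and 39.4 CPM in KO. All KO libraries were below all WT libraries, KO replicate 1 by a small margin. The KO mean was 65.2% of WT, with a log2 fold change of −0.62 (SE 0.15, adjusted p = 0.0131). The call was lost without KO replicate 2 (0.0686) or KO replicate 3 (0.0674) and was strongest with the block (1.72e-05). Exons of ALDH1L2 overlap those of NOPCHAP1 and WASHC4 on the opposite strand, and since no source says whether counting used the strand, reads of these genes may not be separated.

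ASNS, the asparagine synthetase (chr7:97851677-97872542, minus strand, 13 exons), showed one of the widest spreads. It was at 238, 153 and 164 CPM in WT and 179, 106 and 111 CPM in KO. The difference between replicate 1 and the others was as large as that between genotypes, since replicate 1 exceeded the mean of replicates 2 and 3 by 49.8% in WT and 65.8% in KO, and KO replicate 1 lay above WT replicates 2 and 3. The genotype difference was not called without a block (log2 fold change −0.51, SE 0.20, adjusted p = 0.0756), whereas the test for replicate number was passed (adjusted p = 0.000995). Single libraries moved this value widely, to −0.32 (adjusted p = 0.199) without WT replicate 1 and to −0.77 (adjusted p = 0.00925) without KO replicate 1, and it was called in 5 of 15 alternatives. Within pairs the log2 ratios were −0.41, −0.54 and −0.57, the blocked standard error was 0.04 and the blocked adjusted p 2.01e-05. An annotated lncRNA, ENSG00000284707, lies over ASNS on the same strand with shared exons. It held a mean of 315.91 counts, against 6223 for ASNS, and strand cannot separate reads of the shared exons. The 4 annotated processed copies of ASNS elsewhere held 1.07% of the count of the gene.

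PYCR1 and ALDH18A1 act in the same route to proline and behaved differently. PYCR1, the mitochondrial pyrroline-5-carboxylate reductase that completes proline synthesis (chr17:81932384-81942412, minus strand, 7 exons), was at 115, 103 and 108 CPM in WT and 82.5, 64.3 and 69.4 CPM in KO. The genotypes were well apart, with means of 109 ± 6.42 and 72.1 ± 9.40 CPM. The log2 fold change of −0.61 (SE 0.08) had the smallest adjusted p of the 10 genes, 0.000284, and was called in all 15 alternatives. PYCR1 overlaps 3 annotated genes, none with a mean above 1.33 counts.

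ALDH18A1, the synthase that makes pyrroline-5-carboxylate from glutamate (chr10:95605941-95656711, minus strand, 18 exons), was at 159.6, 158 and 159 CPM in WT and 153, 169.8 and 165 CPM in KO. KO values lay on both sides of WT, and neither genotype nor replicate number was called (adjusted p = 0.818 and 0.709). The log2 fold change was 0.02 with a 95% interval of −0.09 to 0.12, an interval that does not reach the fitted value of any other gene of the 10. The sign turned without KO replicate 2 (−0.013).

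Promoters were compared because the genes move together and ATF4 is known to act through a composite element shared with C/EBP factors. Promoter sequences from RefSeq (GRCh38.p14, 250 bases before to 50 after each start) were matched for 6 of the 10 genes, namely ASNS, PHGDH, PSAT1, MTHFD2, ALDH18A1 and PCK2, and were not used for PSPH, SHMT2, ALDH1L2 and PYCR1. On either strand, TGATGNAA occurred in 3.62% of 35116 promoters and in 1 of the 6 genes, ASNS, and CACGTG, an E-box, in 7.26% of promoters and in 1 of the 6, ALDH18A1. These windows are shown because they come from the gene in which the element is a textbook example and from the gene whose level did not follow the others, each on its minus strand, 5′ to 3′, with the matching letters in capitals.
ASNS, chr7:97872429-97872516: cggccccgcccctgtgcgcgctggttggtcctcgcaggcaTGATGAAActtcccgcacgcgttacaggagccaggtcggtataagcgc
ALDH18A1, chr10:95656802-95656887: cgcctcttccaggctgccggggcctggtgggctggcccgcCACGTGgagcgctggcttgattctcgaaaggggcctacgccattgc
The match in ASNS lies 68 to 61 bases before the start and that in ALDH18A1 136 to 131 bases before it. Of 31 further pathway genes with a promoter, 2 held TGATGNAA (GOT1 and MTHFD1L) and 4 held CACGTG. A match is a description of these letters and gives no binding.

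PCK2, the mitochondrial phosphoenolpyruvate carboxykinase (chr14:24094053-24110598, plus strand, 10 exons), had the largest difference and the largest spread. It was at 32.2, 14.55 and 18.9 CPM in WT and 15.03, 7.21 and 8.10 CPM in KO. KO replicate 1 was just above WT replicate 2, yet each KO library was far below the WT library with its number, with log2 ratios of −1.10, −1.01 and −1.22. The KO mean was 46.3% of WT, and the log2 fold change was −1.13 (SE 0.30, adjusted p = 0.0171). This call was lost with DESeq2 (0.0518), without a CPM filter (0.0529), without KO replicate 2 (0.101) and without KO replicate 3 (0.0765), and the block gave 3.12e-06. Replicate 1 exceeded the mean of the others by 92.5% in WT and 96.3% in KO.

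**Figure D2:**
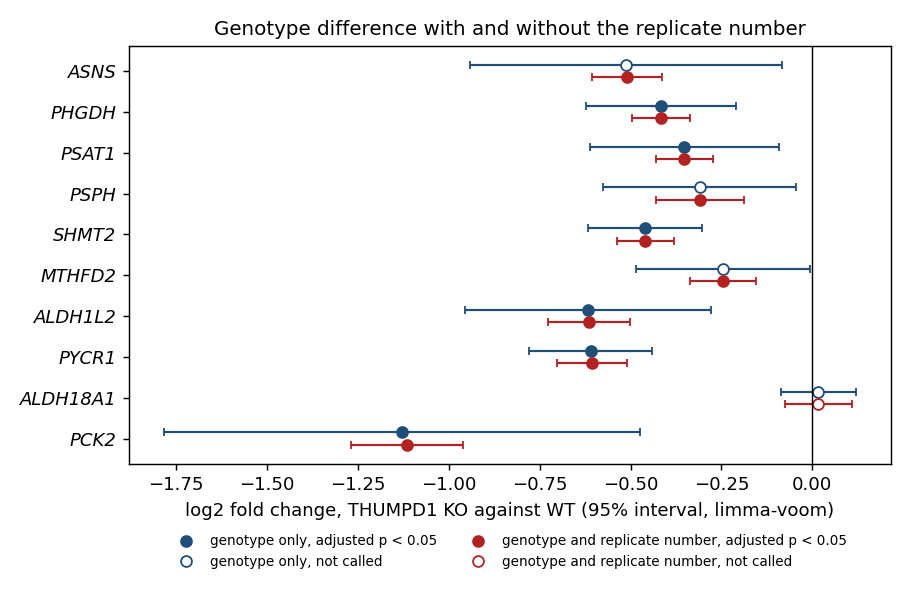
Log2 fold change of THUMPD1 KO against WT for each enzyme gene, with 95% intervals, from limma-voom fits with genotype only (blue) and with genotype and replicate number (red), where filled circles mark an adjusted p under 0.05. The estimates of the 2 fits nearly coincide while the intervals narrow with the replicate number, most for ASNS and PCK2, and ALDH18A1 lies at 0.02.

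Groups of libraries that did not overlap, with all KO values lower, were found for PHGDH, SHMT2, ALDH1L2 and PYCR1, which is 4 of 10 genes against 17.6% of all tested genes. At an unadjusted p under 0.05, 9 of the 10 passed, against 39.2% of all genes in either direction. None of the chromosomes that carry the 10 genes was shifted as a whole, with median log2 fold changes between 0.01 and 0.03. ATF4, known to regulate several of these genes, was at 626, 516 and 542 CPM in WT and 473, 425 and 422 CPM in KO (log2 fold change −0.37, SE 0.08, adjusted p = 0.00604). It lies on chromosome 22, where the median log2 fold change of 375 tested genes was −0.34, and a part of this chromosome in its lower value was not tested.

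The excess of replicate 1 varied widely from gene to gene. Outside ALDH18A1 it ran from 9.69% for PYCR1 to 92.5% for PCK2 in WT and from 13.3% for SHMT2 to 96.3% for PCK2 in KO. The genes called for replicate number were ASNS, PHGDH, PSAT1, PSPH, MTHFD2, ALDH1L2 and PCK2, and these made up 9.86% of the 71 genes called in the whole table. This call depended on the filter, for these genes as for all others. Without a CPM filter limma-voom called 0 of all 31730 genes for replicate number, and so none of the 10 (their lowest adjusted p = 0.619). At an unadjusted p under 0.05, 9 of the 10 passed with the filter, against 14.4% of all genes, and 9 without it, against 7.47% of all 31730 genes then tested. Leaving out WT replicate 2 left 4 of the 7 calls, and 46 of all tested genes were then called, against 71 with all libraries. EdgeR called 5 of the 10 (0.61% of all genes), DESeq2 called 7 (1.07%) and limma-voom with TMM library sizes called 7 (0.835%). What the numbers mark is not given in the labels.

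**Figure D3:**
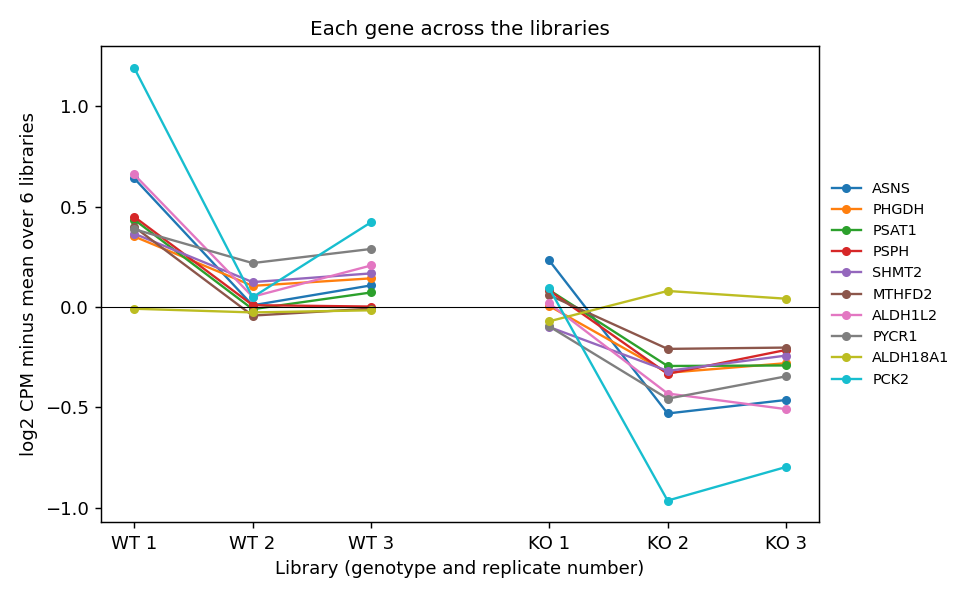
Log2 CPM of each enzyme gene minus its own mean over the 6 libraries, drawn for WT replicates 1 to 3 and THUMPD1 KO replicates 1 to 3. The mean of the 10 lines is 0.49, 0.05 and 0.14 in WT and 0.03, −0.38 and −0.33 in KO, with PCK2 spread widest and ALDH18A1 flat.

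Levels between genes were compared per kilobase of the canonical transcript. In WT the order of mean levels was PHGDH (190.1 ± 17.9 CPM per kb), PSAT1 (129.7 ± 22.1), SHMT2 (90.8 ± 8.29), ASNS (77.7 ± 19.3), MTHFD2 (58.5 ± 10.4), PYCR1 (47.9 ± 2.83), ALDH18A1 (47.3 ± 0.302), PSPH (14.7 ± 2.74), PCK2 (10.03 ± 4.21) and ALDH1L2 (9.48 ± 2.16), all SD with n = 3. The first steps of serine synthesis thus gave the most RNA per length and the phosphatase PSPH far less. SHMT2 and ASNS, ASNS and MTHFD2, PYCR1 and ALDH18A1, PSPH and PCK2, and PCK2 and ALDH1L2 were neighbours whose WT libraries overlapped, so their order is not resolved. In KO, ALDH18A1 (48.5 ± 2.62 CPM per kb) stood above PYCR1 (31.8 ± 4.14) without overlap, and PCK2 (4.64 ± 1.96) came last, overlapping ALDH1L2 (6.18 ± 1.28).

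Several of these enzymes have a counterpart for the same reaction in another compartment or tissue, and SHMT1, MTHFD1, MTHFD2L and PYCR3 were tested and not called. SHMT1, the cytosolic serine hydroxymethyltransferase, had a log2 fold change of −0.02 (95% interval −0.14 to 0.09, adjusted p = 0.762), although its sign turned without WT replicate 1 (0.011) or KO replicate 3 (0.002). The level of SHMT2 per length relative to SHMT1 was 4.80, 4.48 and 4.58 in WT and 3.61, 3.22 and 3.55 in KO. For PYCR3, the cytosolic pyrroline-5-carboxylate reductase, the log2 fold change was −0.03 (interval −0.15 to 0.10, sign turned without WT replicate 1), and the level of PYCR1 relative to it was 5.34, 5.18 and 5.35 in WT and 3.87, 3.36 and 3.49 in KO. Both ratios were lower in every KO library than in any WT library.

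MTHFD1, the cytosolic trifunctional folate enzyme, was at −0.10 (adjusted p = 0.0917), with all KO libraries below all WT libraries. MTHFD2L, a paralog of MTHFD2, had a log2 fold change of 0.04 (interval −0.14 to 0.21), whose sign turned with edgeR and DESeq2. The level of MTHFD2 per length relative to MTHFD2L was 7.78, 5.54 and 5.73 in WT and 5.85, 4.53 and 5.56 in KO, and these ranges overlapped. The cytosolic enzymes ALDH1L1 (0.241 to 0.901 CPM) and PCK1 (0 to 0.261 CPM) did not pass the filter.

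The wider pathways showed no common direction. Of 45 further genes of serine, glycine, folate, proline, glutamate, asparagine and phosphoenolpyruvate metabolism, 37 were tested, and 12 of these were called, 6 lower and 6 higher (32.4%, against 26.7% of all tested genes in either direction). Their median log2 fold change was −0.03. Without the replicate 1 libraries 10 were lower and 4 higher, where 15.7% of all genes were called lower and 16.6% higher (32.4% in either direction). With the block 8 were lower and 8 higher, where 16.7% of all genes were called lower and 18.4% higher (35.1% in either direction). Among the 37, 1 gene was called for replicate number, against 0.471% of all tested genes. This was GPT2, the mitochondrial alanine transaminase, with 77.3, 48.5 and 53.3 CPM in WT and 63.9, 47.5 and 52.9 CPM in KO (genotype adjusted p = 0.594).

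Around serine and glycine, 2 of 6 tested genes were called lower and 2 higher, against 13.0% and 13.7% of all tested genes. GLDC, the decarboxylase of the glycine cleavage system, was at 60.9, 60.9 and 62.0 CPM in WT and 38.3, 44.7 and 44.5 CPM in KO (log2 fold change −0.53, SE 0.07, adjusted p = 0.000259). Replicate 1 was the lowest KO library for GLDC. GCAT, which makes glycine from a threonine product, was lower by a similar amount (−0.47, adjusted p = 0.000997), and it lies on chromosome 22 with its shifted median. SRR, the serine racemase, was higher, at 4.87, 4.24 and 3.92 CPM in WT and 8.34, 7.08 and 7.45 CPM in KO (log2 fold change 0.77, adjusted p = 0.000380). SDSL, a serine dehydratase relative, was near the filter at 0.715 to 1.05 CPM in WT and 1.36 to 1.98 CPM in KO, and its call (adjusted p = 0.0401) was lost in 7 alternatives. WT replicates 1 and 2 were below 1 CPM (0.997 and 0.715), so SDSL passed the filter only through its KO libraries. Its p value is therefore no separate support for the difference, although SDSL is counted among the genes called higher.

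Of 15 tested folate genes 1 was called lower and 2 higher, against 13.0% and 13.7% of all tested genes. The calls of MTHFD1L and SLC25A32 were close to the threshold. MTHFD1L, the mitochondrial formyltetrahydrofolate synthetase, was at 133, 113 and 111 CPM in WT and 105, 104 and 106 CPM in KO. Its log2 fold change of −0.20 (adjusted p = 0.0471) and that of the mitochondrial folate carrier SLC25A32, 0.19 (adjusted p = 0.0344), lost their calls in 8 and 9 alternatives.

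Of the 6 genes of proline, glutamate and ornithine metabolism 1 was called, against 26.7% of all tested genes in either direction. This was PRODH, the proline dehydrogenase (log2 fold change −1.17, adjusted p = 0.00340), also on chromosome 22. It was near the filter, at 1.74 to 2.16 CPM in WT and 0.680 to 1.29 CPM in KO. Without the replicate 1 libraries 4 of the 6 were called lower and 0 higher, against 15.7% and 16.6% of all genes. Of 9 genes around asparagine, aspartate and glutamine, GLS2, the liver-type glutaminase, had the lowest log2 fold change (−1.71, SE 0.18, adjusted p = 7.79e-05). It was at 2.51, 2.25 and 2.68 CPM in WT and 0.881, 0.771 and 0.858 CPM in KO. All KO values were below 1 CPM, so GLS2 passed the filter only through its WT libraries. Its p value is therefore no separate support for the difference. GLUL, the glutamine synthetase, and GOT2, the mitochondrial aspartate transaminase, rose slightly and without overlap, by log2 fold changes of 0.20 (adjusted p = 0.00487) and 0.24 (adjusted p = 0.00210). ASL, the argininosuccinate lyase, was called lower (−0.26, adjusted p = 0.0469), a call lost in 8 alternatives. PC, the pyruvate carboxylase, was the one tested gene around phosphoenolpyruvate and was not called.

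**Figure D4:**
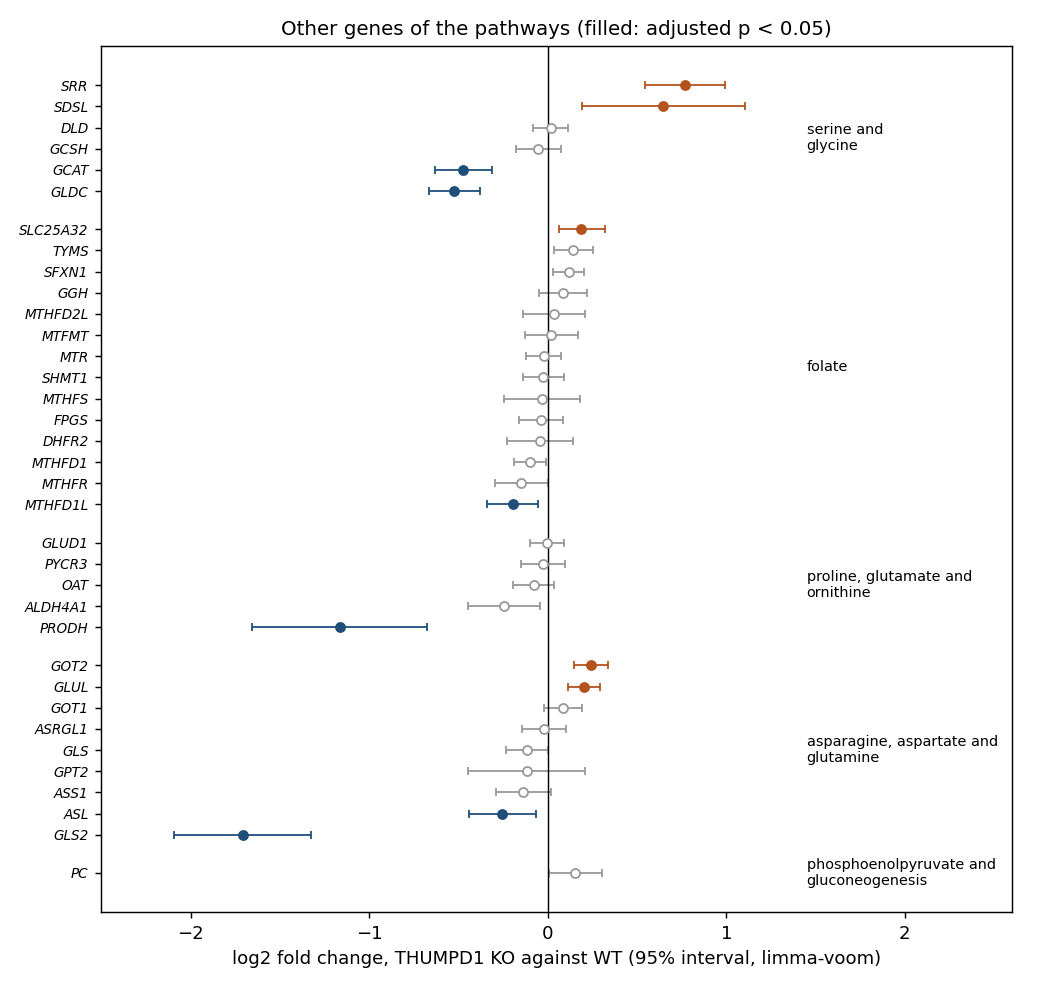
Log2 fold change of THUMPD1 KO against WT with 95% intervals (limma-voom) for the tested further genes of the pathways (2 of the 37 are not shown), ordered by role and size, with blue for called lower, orange for called higher and open grey for not called. The genes called lower and those called higher are spread over the roles, from −1.71 for GLS2 to 0.77 for SRR. GLS2 passed the filter only through its WT libraries and SDSL only through its KO libraries.

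The genes whose profile over the 6 libraries was most like the mean profile of the 10 enzymes were sought among 10240 other genes with a mean of at least 10 CPM, by the root mean square difference of centred log2 CPM. The closest was COL1A1 (0.0324 log2 units), a collagen gene, followed by the translation repressor EIF4EBP1 (0.0486), R3HDM2 (0.0532), ANK2 (0.0588) and the thyroid hormone receptor gene THRB (0.0593), against a median difference of 0.303. COL1A1 was at 17.0, 12.8 and 13.3 CPM in WT and 12.7, 9.002 and 9.34 CPM in KO, the same shape with replicate 1 highest. EIF4EBP1 was at 96.1, 74.5 and 76.7 CPM in WT and 77.7, 54.6 and 58.3 CPM in KO. Of the enzymes, PSAT1 (0.0608) and PHGDH (0.0677) were nearest to the mean profile and ALDH18A1 (0.325) and PCK2 (0.437) farthest. COL1A1 was also the single gene called among the 17 markers of other cells (log2 fold change −0.48, adjusted p = 0.0160). The other 3 tested markers of that list, COL3A1 (0.30, adjusted p = 0.245), LUM (0.39, adjusted p = 0.165) and CAV1 (0.11, adjusted p = 0.525), had log2 fold changes of the opposite sign and were not called.

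The coding sequences differed in their use of the leucine codons UUA, UUG, CUA and CUU, which the study examined for ribosome pausing. These codons made up 11.1% of all leucine codons in PYCR1, 20.0% in PHGDH, 24.6% in PCK2, 25% in SHMT2, 38.9% in PSPH, 45.7% in ALDH18A1, 54.0% in ALDH1L2, 55.9% in ASNS, 60.0% in PSAT1 and 60.6% in MTHFD2. PYCR1 and MTHFD2 thus stood at percentiles 6.90 and 73.2 of 12614 tested coding genes, and the median of the 10 genes, 42.3%, was near that of all, 41.8%. Leucine codons made up a median of 9.99% of codons in the 10 genes and 9.75% in all, and serine codons 5.71% against 7.57%. In the fit without a block, the 4 genes with the lowest shares, PYCR1, PHGDH, PCK2 and SHMT2, were all called lower. Of the others only PSAT1 and ALDH1L2 were. With the block this split was not seen, since 9 of the 10 were called lower, all but ALDH18A1. A relation between codon use and the genotype difference was not tested.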

How the data were processed

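The labels give 3 WT and 3 THUMPD1 KO libraries of HEK-293T RNA. The authors made stranded, ribosomal RNA-depleted paired-end libraries, aligned reads to GRCh38 with STAR and deposited RSEM expected counts per gene, not scaled between libraries. Versions of these tools and the strand setting are not given in the sources used here. The study names GENCODE 46, while symbols, positions and transcripts were taken here from GENCODE 44, which held 99.3% of the 58870 IDs. CPM were computed from the deposited counts and their totals.

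The filter kept the 15088 genes that reached 1 CPM in 3 or more of the 6 libraries. Their counts were quantile normalized, and limma-voom (limma 3.58.1, R 4.3.3) was run with genotype as the only term, after the methods of the study. Tests were two-sided, with Benjamini-Hochberg adjustment and a threshold of 0.05. Differences between replicate numbers were tested with the moderated F test of a fit with genotype and number. The scripts were tested on simulated data.

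Both genotypes carry replicate numbers 1 to 3, whose meaning is not given. Over 10281 genes, deviations from the genotype means correlated at 0.306, 0.363 and 0.158 for equal numbers and −0.382 to 0.103 for unequal ones, so the numbers were taken to pair the libraries.

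Alternatives were edgeR 4.0.16 and DESeq2 1.42.0 on rounded counts, TMM or plain library sizes, no filter or 1 CPM in all 6 libraries, sample quality weights, the replicate block, an adjusted p under 0.01, and each library left out. Leaving out both replicate 1 libraries was added after seeing the data. The 10 genes and the lists were chosen with earlier results of these data known. Named in the text are the 10 genes, pathway genes that were called or are counterparts of the 10, THUMPD1, ATF4 and the 5 genes most alike in profile. Values of 2 pathway genes are not reported here. GPT2, PC, GOT1 and the markers were named after their values were seen.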

Additional observations from a re-analysis of the deposited data

How the results depend on the processing

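The number of the 10 enzymes called for genotype was 6, beside 4025 of all 15088 tested genes. Under other tools, normalizations, filters, weights and the block it was 4 (no CPM filter, 3200 of 31730 genes) to 9. It was 9 with the replicate block (5297 of all genes) and 9 without the replicate 1 libraries (4884, a setting chosen after seeing the data). At an adjusted p under 0.01 it was 3. The number of all genes under 0.01 is not given here, so this drop cannot be set against that of all genes. Of single libraries, leaving out KO replicate 2 or KO replicate 3 gave the lowest number, 3, with 2663 and 2799 of all genes called. Leaving out WT replicate 2 or KO replicate 1 gave the highest, 8, with 3243 and 3623 called. The median log2 fold change of −0.44 became −0.41 with sample quality weights and −0.53 (without KO replicate 1) to −0.32 (without WT replicate 1) when single libraries were left out. The number called for replicate number was 7, beside 71 of all 15088 genes. Without a CPM filter it was 0, with 0 of all 31730 genes called. Without the replicate 1 libraries it was 0, with 73 of all genes called. At an unadjusted p under 0.05 it was then 3, with 1607 of all genes. Without single libraries it ran from 4 (without WT replicate 2, 46 of all genes) to 9. The 9 came without WT replicate 1 (954 of all genes) or without KO replicate 1 (2127 of all genes). For the further pathway genes the count of 12 ranged from 8 (no CPM filter, or without KO replicate 3) to 18 (sample quality weights). The count over all genes moved as well. It was 3200 of 31730 with no CPM filter, 2799 of 15088 without KO replicate 3 and 5510 of 15088 with the weights. Signs turned only for small differences: ALDH18A1 without KO replicate 2 (−0.013, up to 0.071 without the replicate 1 libraries), SHMT1 without KO replicate 3 (0.002) or WT replicate 1 (0.011, down to −0.046 without WT replicate 2), MTHFD2L with DESeq2 (−0.001), edgeR (−0.001), sample quality weights (−0.007) or without KO replicate 2 (−0.044, up to 0.104 without KO replicate 3), and PYCR3 without WT replicate 1 (0.001, down to −0.057 without KO replicate 1). The causes of these changes were not tested. The 9 lower enzymes kept their sign in all 15 alternatives. The lowest count of the 10 genes was 261, and libraries of 1 genotype differed by more than counting noise. An effect of depth was not tested.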
